A study of Mus musculus with 24 samples.

Results

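LIN28, IGF2BP, HMGA and MYC genes are a group of regulators of early embryonic growth, taken here as the 10 genes Lin28a, Lin28b, Trim71, Hmga1, Hmga2, Igf2bp1, Igf2bp2, Igf2bp3, Myc and Mycn. They were listed by name and read in all 6 RNAseq samples of mouse embryonic stem cells (ESCs) and of neural progenitors derived from them (NPCs), where they make up 10 of 21909 distinct gene symbols. LIN28 proteins bind the precursors of the let-7 microRNAs and block their maturation, and mature let-7 in turn represses mRNAs that carry its sites, among them those of LIN28, HMGA2 and IGF2BP genes. TRIM71 is a stem cell protein whose mRNA is also a let-7 target, HMGA proteins bend AT-rich DNA, IGF2BP proteins bind and stabilize mRNAs, and MYC proteins activate growth genes together with MAX. In development these genes are known for high activity in early embryos, neural progenitors and tumours, and for a decline as let-7 accumulates.

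The study mapped the contacts of chromosomes with the nucleolus in ESCs and in NPCs, and RNAseq of both cell types was used to set these contacts beside expression. ESCs were of the untreated mouse line E14, grown without feeder cells on gelatin with LIF and with inhibitors of MEK and GSK3β (2i). NPCs were made from E14 as embryoid bodies in suspension over 8 days in medium with fetal calf serum, with 2 µM retinoic acid in the last 4 days. Each cell type had 3 samples, described by the labels as separate culture dishes, and values per sample are given in the order of replicates 1, 2 and 3. Both groups therefore come from 1 cell line, and the p-values measure the spread between dishes. The medium changed together with the cell type, and the labels give no batch, so that an effect of batch cannot be separated from 1 of cell type.

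Expression is given as RPKM, reads divided by the kilobases of the gene and by sequencing depth. The kilobases were those of the gene from start to end with its introns: multiplied by this span, between 97.5% and 97.8% of the low values of each sample (up to 20 reads) were whole reads within 0.1 read, and at best 24.3% to 25.5% were with the summed exon length. A gene with long introns therefore has a low RPKM, which does not touch a ratio of mean RPKM between cell types but sets the order of genes. It also bears on which genes pass a filter on RPKM and on the size of differences in log2(RPKM + 1). Levels between genes were also compared per kilobase of exon, a scale chosen after seeing the data. It holds if reads of exons alone were counted, which the files do not show; with intronic reads it would be too high for genes with long introns, most of all Hmga2, Igf2bp3 and Igf2bp2, with spans of 17.0, 15.9 and 14.1 times their exons. The steps between low values correspond to sequencing depths of 34.0, 33.7 and 30.8 M reads in the ESC samples and of 30.1, 27.3 and 32.3 M reads in the NPC samples. At this depth the lowest count of any member was about 222 reads, of Myc in ESC replicate 1, and the lowest of Lin28b about 263, in ESC replicate 3.

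ESC replicate 3 stood apart from the other ESC samples. Across genes, log2(RPKM + 1) of ESC replicates 1 and 2 correlated with r = 0.999, and ESC replicate 3 with r = 0.979 and 0.980, while the NPC samples correlated with each other at 0.998 or more; genes are not independent replicates. The difference followed gene length: relative to the mean of the other ESC samples, the median RPKM ratio of ESC replicate 3 was 1.89 for genes with under 1000 exon bases and 0.617 for genes with 6000 or more. The same medians stayed between 0.971 and 1.02 in the NPC samples. Trim71, Igf2bp1, Igf2bp3 and Lin28b, whose exons sum to 8159 bases or more, had ratios of 0.451, 0.489, 0.487 and 0.588 in this sample, and Hmga1, with 2125 exon bases, had 1.14. Calls of members and counts of lists that change with ESC replicate 3 are given with and without it. The part of RNA quality or library preparation in its values was not tested.

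**Figure D1:**
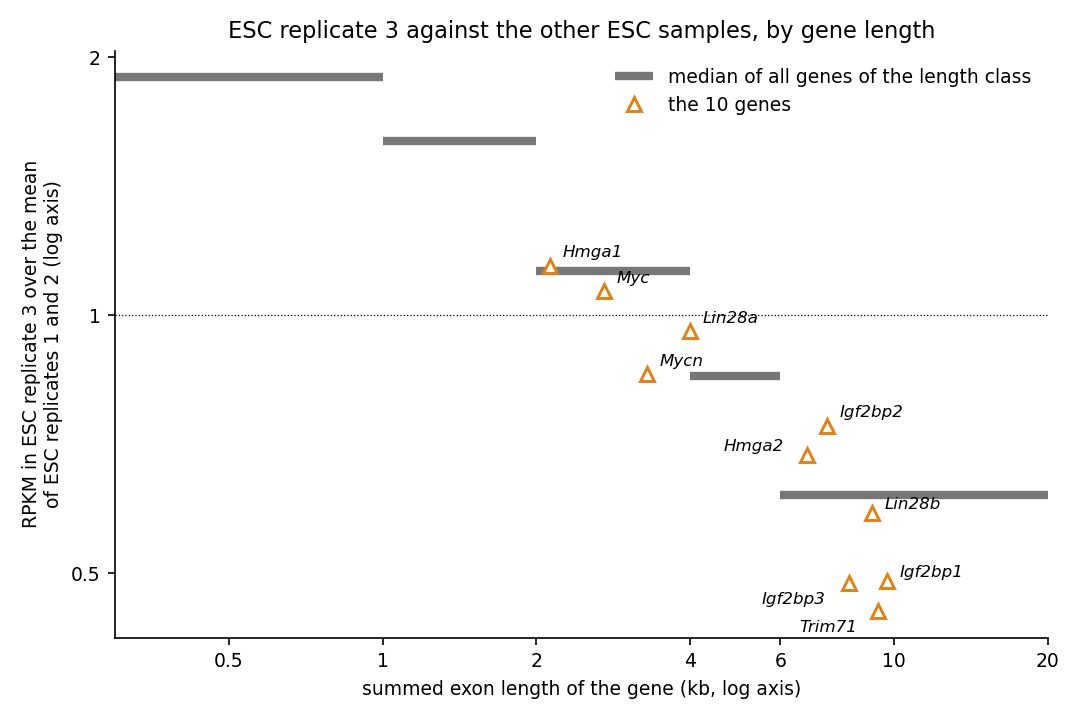
RPKM in ESC replicate 3 divided by the mean of ESC replicates 1 and 2 (y axis, log scale) against the summed exon length of the gene in kb (x axis, log scale). Triangles are the 10 genes and grey bars the medians of length classes over genes at RPKM of 1 or more in at least 3 samples; bars of the outer classes run to the edge of the axis, and the ratio falls from 1.89 in the shortest class to 0.617 in the longest.

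The cell type labels were compared with marker genes. Here and in the next paragraph, counts on the deposited values stand beside 37.0% of all genes called higher and 33.1% lower. Without ESC replicate 3 these shares were 44.0% and 43.9%. All 10 ESC markers were called lower, with a summed RPKM of 1767, 1767 and 3678 in the ESC samples and 2.85, 2.52 and 2.52 in the NPC samples, with Dppa5a the most abundant in ESCs and Klf4 in NPCs. All but Klf4 were under 1 RPKM in every NPC sample and passed the filter only through ESCs, so that their calls follow from it. The 9 neural progenitor markers summed to 41.6, 43.2 and 51.2 in ESCs and to 87.7, 93.0 and 95.5 in NPCs, and 5 of the 6 that were tested were called higher (all 6 without ESC replicate 3), while Vim, the most abundant of them in both, did not pass the test with all samples. Of these, Pax6, Sox1 and Hes5 were under 1 RPKM in every ESC sample and passed the filter only through NPCs, so that they had to differ. Pax6 had a mean of 1.55 RPKM in NPCs and 0.0116 in ESCs, and Nes, an intermediate filament of neural progenitors, 30.6 and 3.46. No marker of the 8 lists examined was at 0 in all samples.

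Markers of other lineages also differed between the cell types. The 6 fibroblast markers summed to 0.144, 0.208 and 0.101 RPKM in the ESC samples and to 48.8, 52.7 and 52.3 in the NPC samples, led by Thy1 in ESCs at a mean of 0.0696 and by Col1a1 in NPCs at 23.7. The 7 endoderm markers summed to between 0.0873 and 0.123 in ESCs and between 15.6 and 17.0 in NPCs, led by Foxa2 in ESCs at 0.0414 and by Gata6 in NPCs at 6.69, and the 4 endoderm and 4 fibroblast markers tested were called higher, but they passed the filter only through their NPC values, so that the filter set this count. Trophoblast markers, 6 in number, summed to 7.14 to 8.64 in ESCs and 15.1 to 17.3 in NPCs, where Krt8 led at 14.0 (Tfap2c in ESCs at 5.28), with 2 higher and 1 lower of 3 tested. The 6 mesoderm markers summed to 1.27 to 1.45 in ESCs, led by T at 0.959, and to 3.62 to 4.05 in NPCs, led by Kdr at 2.94, the 1 gene of the list tested, called higher. The 8 neuron markers summed to 11.6 to 14.9 and to 6.88 to 8.21, led by Tubb3 in both, with 1 higher and 2 lower of 3 tested. Per kilobase of exon, however, 5 were higher and 2 lower of 7 tested, beside 43.1% and 29.6% of all genes. The neuron marker median turned from -0.69 to 1.15, while the median of all genes went from 0.03 to 0.21. The 5 neural crest markers summed to 7.62 to 8.78, led by Foxd3 at 7.65, and to 2.23 to 2.49, led by Ets1 at 1.13, with 1 higher and 1 lower of 2 tested. Kdr, Ets1, Krt7 and Neurod1 also passed the filter only through NPCs, and Tfap2c, Foxd3 and Stmn2 only through ESCs, so that the filter set these calls too. The NPC samples thus held RNA of neural progenitor genes together with RNA of endoderm and fibroblast markers. The part of such cells in the levels of the 10 genes was not tested, and in bulk RNA fewer cells of a type and less RNA per cell cannot be told apart.

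Of the 10 genes, 9 had an RPKM of at least 1 in at least 3 of the 6 samples and were tested with limma on log2(RPKM + 1) among 7757 genes. Hmga2, Igf2bp2 and Myc rose in NPCs, 3 of 9, beside 37.0% of all genes tested that were called higher. Lin28a, Trim71 and Hmga1 fell, also 3 of 9, beside 33.1% that were called lower (Benjamini-Hochberg adjusted p under 0.05). All 6 also differed by at least 1 on the log2 scale, as did 28.7% of the genes tested. Igf2bp1, Igf2bp3 and Mycn did not pass the test, and Lin28b was below the filter. Hmga2 entered the test through its NPC values and Trim71 through its ESC values, so both had to differ, as did genes of the lists below that had under 1 RPKM in every sample of a single cell type. Differences on the log2(RPKM + 1) scale understate the change of genes with low RPKM.

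Without ESC replicate 3, 3 members were called higher and 4 lower, with Igf2bp1 as the addition, beside 44.0% higher and 43.9% lower among all genes. Per kilobase of exon all 10 passed the filter, 4 were called higher, including Lin28b, and 3 lower, beside 43.1% and 29.6% of 11809 genes. Of all genes called, 52.8% were higher in NPCs on the deposited values. This share was 73.7% after scaling each sample to the same sum (TPM), which also let 12520 genes pass the filter of 1, 63.3% with no filter, 37.2% with RPKM of at least 1 in all 6 samples and 40.4% after median-of-ratios scaling. The median difference of all genes tested was 0.03 on the log2 scale with the deposited values, and moved to 0.60 with TPM, -0.22 with median-of-ratios scaling, -0.17 with the filter on all 6 samples and 0.21 per kilobase of exon.

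**Figure D2:**
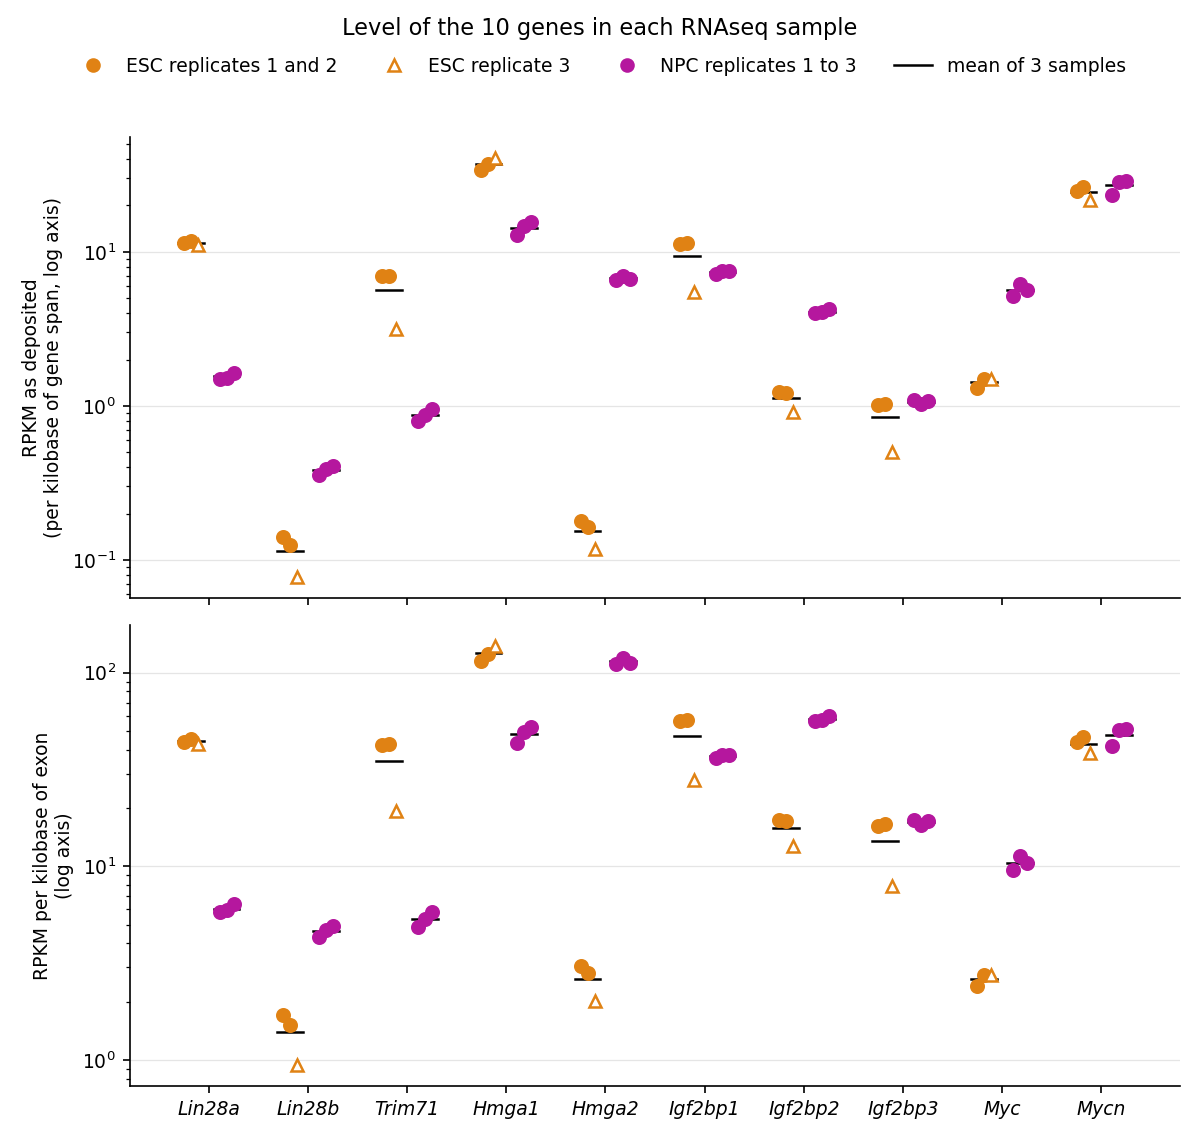
Level of each of the 10 genes in each sample, as deposited RPKM (top) and per kilobase of exon (bottom), both on a log axis. Orange marks are ESC samples, with replicate 3 as an open triangle, magenta marks are NPC samples, and black lines are means of 3 samples; Hmga2 goes from a mean of 0.154 to 6.72 RPKM, and from 2.62 to 114 per kilobase of exon.

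LIN28A is the LIN28 protein of pluripotent cells. Lin28a, on the minus strand of chromosome 4 (chr4:134003330-134018841 of GRCm38), had RPKM values of 11.3, 11.8 and 11.1 in the ESC samples and of 1.49, 1.53 and 1.64 in the NPC samples. Every ESC sample lay far above every NPC sample, and ESC replicate 3 was close to the other ESC samples. The mean RPKM was 7.34 times as high in ESCs (11.4 ± 0.361, SD, n = 3) as in NPCs (1.55 ± 0.0788, SD, n = 3). Lin28a fell by 2.28 on the log2 scale (SE 0.07, limma adjusted p = 6.2e-07), and by 2.299 without ESC replicate 3.

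LIN28B is its paralog and acts on the same microRNA precursors. Lin28b (chr10:45376620-45486395, minus strand) was the lowest of the 10 genes in both cell types on the RPKM scale, with 0.141, 0.124 and 0.0778 RPKM in the ESC samples and 0.354, 0.389 and 0.404 in the NPC samples. The NPC samples lay above all ESC samples, and ESC replicate 3 was the lowest. The mean RPKM was 3.35 times as high in NPCs, and 2.89 times without ESC replicate 3. Since exons make up 8.26% of its span, the same values per kilobase of exon were 0.943 to 1.70 in ESCs and 4.28 to 4.90 in NPCs. On that scale Lin28b rose by 1.25 on the log2 scale (SE 0.14, limma adjusted p = 0.000188), and by 1.11 without ESC replicate 3. With no filter on the deposited RPKM the difference was 0.31 (limma adjusted p = 0.000236), beside 39.5% of 18217 genes called higher. The LIN28 genes therefore moved in opposite directions: Lin28a was higher in ESCs and Lin28b, at a low level, in NPCs.

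The genes closest to Lin28a in log2(RPKM + 1) over the 6 samples, among 21755 genes, were Slc29a1 (Euclidean distance 0.134), Acadm (0.442) and Zfp990 (0.487). Slc29a1, a nucleoside transporter, had mean RPKM values of 11.3 in ESCs and 1.59 in NPCs. The closest to Lin28b were Baz1a (0.0559), Bbs7 (0.0566) and Ttc17 (0.0579), with mean RPKM values of 0.0938, 0.111 and 0.128 in ESCs and 0.379, 0.376 and 0.377 in NPCs. Between genes of such low RPKM, distances on log2(RPKM + 1) are small even where patterns differ. They are therefore not comparable with those of Lin28a, and the low RPKM of Lin28b also reflects its long introns.

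TRIM71 is a ubiquitin ligase of the TRIM-NHL family that binds mRNAs and is made in stem cells and early embryos. Trim71 (chr9:114507133-114564369, minus strand) had RPKM values of 6.93, 6.98 and 3.14 in the ESC samples and of 0.794, 0.867 and 0.951 in the NPC samples. The groups did not overlap, although ESC replicate 3 had 0.451 times the mean RPKM of the other ESC samples. Trim71 fell by 1.78 on the log2 scale (SE 0.26, limma adjusted p = 0.00095), and by 2.09 without ESC replicate 3. The ratio of mean RPKM in ESCs over NPCs was 6.53 with all samples and 7.99 without that sample. On the opposite strand C130032M10Rik shares 135 exon bases with Trim71, and its RPKM was between 0.134 and 0.652 in ESCs.

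The other TRIM-NHL genes Trim2, Trim3 and Trim32 had no common direction. Trim3 and Trim32 were tested and called higher, beside 37.0% of all genes, and the same without ESC replicate 3, beside 44.0%. Their median difference was 0.93 beside 0.03 for all genes tested (0.84 without ESC replicate 3). However, Trim3 passed the filter only through NPCs, and the same filter left out Trim2, which was lower there. Trim32, a ubiquitin ligase of muscle and neural progenitors, went from a mean of 2.43 to 7.01 RPKM (limma adjusted p = 0.000204), and Trim3 from 0.741 to 1.70. Trim2, below the filter, had 0.443 RPKM in ESCs and 0.275 in NPCs, and per kilobase of exon it fell by 0.48 (limma adjusted p = 0.0214).

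HMGA1 and HMGA2 are architectural chromatin proteins that bind the minor groove of AT-rich DNA. Hmga1 (chr17:27556497-27563674, plus strand) had RPKM values of 34.1, 37.1 and 40.7 in the ESC samples and of 12.8, 14.6 and 15.6 in the NPC samples. All ESC samples were higher than all NPC samples. Hmga1 fell by 1.32 on the log2 scale (SE 0.12, limma adjusted p = 8.7e-05), a ratio of mean RPKM of 2.60 in favour of ESCs, and by 1.26 without ESC replicate 3. AI413582 on the opposite strand shares 102 exon bases with Hmga1 and had 3.12 to 5.83 RPKM in ESCs and 2.08 to 2.58 in NPCs.

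Hmga2 (chr10:120361275-120476469, minus strand) had RPKM values of 0.179, 0.165 and 0.118 in the ESC samples and of 6.55, 6.98 and 6.63 in the NPC samples. The NPC samples were close to each other and far above the ESC samples. The ratio of mean RPKM was 43.6 in favour of NPCs, and 39.1 without ESC replicate 3. Hmga2 rose by 2.74 on the log2(RPKM + 1) scale (SE 0.06, limma adjusted p = 2.0e-07), and by 5.004 per kilobase of exon (limma adjusted p = 2.2e-07), where the pseudocount weighs less. Between about 419 and 703 reads of Hmga2 in each ESC sample and 21900 to 24700 in each NPC sample stood behind these values. Slc4a3 (Euclidean distance 0.136), Aebp1 (0.161) and Adcy6 (0.181) were the genes closest to Hmga2 among 21755. Slc4a3, an anion exchanger, had mean RPKM values of 0.114 in ESCs and 6.94 in NPCs, and Aebp1, a secreted protein of connective tissue, 0.124 and 6.44.

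On the RPKM scale Hmga1 remained above Hmga2 in NPCs, with means of 14.3 and 6.72, but Hmga2 has exons over 5.88% of its span and Hmga1 over 29.6%. Per kilobase of exon the means were 126 for Hmga1 and 2.62 for Hmga2 in ESCs and 48.4 and 114 in NPCs, so that the order in NPCs depended on the length used. Of 10 other HMG genes 8 were tested, 5 were called higher and 2 lower, beside 37.0% and 33.1% of all genes, and the same without ESC replicate 3, beside 44.0% and 43.9%, with a median of 0.32 beside 0.03 for all genes tested. Hmgb3 went from 6.11 to 23.8 RPKM, while Hmgb2, a chromatin protein of dividing cells, fell from 93.9 to 58.3 and Hmg20b from 15.0 to 10.6. Neither fall passed the test with TPM (-0.26 and -0.09) or quantile normalization (-0.13 and -0.26). The difference of Hmg20b was -0.48 with all samples. It was -0.35 without NPC replicate 1 and -0.53 without NPC replicate 3, and passed in neither (limma adjusted p = 0.072 and 0.0505). Hmgb4 was at 0 in all samples.

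IGF2BP proteins bind target mRNAs, among them Igf2 and Myc, and protect them from decay. Igf2bp1 (chr11:95957163-96005940, minus strand) had RPKM values of 11.2, 11.3 and 5.52 in the ESC samples and of 7.22, 7.47 and 7.49 in the NPC samples. ESC replicates 1 and 2 were above the NPC samples and ESC replicate 3 below them, so the groups overlapped. The difference of Igf2bp1 was -0.24 on the log2 scale (SE 0.25, limma adjusted p = 0.415), and it turned to 0.16 with TPM scaling, which is -0.45 relative to the median of all genes under that scaling. Without ESC replicate 3, the samples separated and the difference was -0.55 (limma adjusted p = 9.3e-06), with 1.52 times as much RPKM in ESCs. The call of Igf2bp1 therefore rested on whether that sample was used.

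Igf2bp2 (chr16:22059009-22163299, minus strand) had RPKM values of 1.23, 1.21 and 0.908 in the ESC samples and of 3.99, 4.06 and 4.23 in the NPC samples. The groups were well apart. Igf2bp2 rose by 1.27 on the log2 scale (SE 0.08, limma adjusted p = 1.9e-05), a ratio of mean RPKM of 3.66, and by 1.20 without ESC replicate 3. Igf2bp3 (chr6:49085223-49214957, minus strand) had RPKM values of 1.02, 1.04 and 0.5001 in the ESC samples and of 1.08, 1.03 and 1.08 in the NPC samples. Except for ESC replicate 3 its samples were close to each other, and the difference was 0.17 (SE 0.12, limma adjusted p = 0.246), or 0.03 without that sample. Malsu1 on the opposite strand shares 1529 exon bases with Igf2bp3 and had 1.53 to 2.80 RPKM in ESCs and 1.05 to 1.12 in NPCs. The kit named in the labels does not mark strand and the kit named in the methods does, so whether reads of Malsu1 were counted for Igf2bp3 is not known.

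Genes of the insulin-like growth factor axis, whose ligand mRNA Igf2 gave the family its name, differed widely. Of 11 found in the tables, 7 were tested and 6 were called higher, beside 37.0% of all genes, and the same without ESC replicate 3, beside 44.0%, while Igfbp2 was not called. Igf2, Igfbp5 and Irs2 were among those that passed the filter only through their NPC values, so count and median (2.79 beside 0.03 for all genes tested) rest partly on the filter, and with RPKM of at least 1 in all 6 samples 1 gene of the list was called. Igf2 had 0.112, 0.181 and 0.0749 RPKM in the ESC samples and 326, 318 and 311 in the NPC samples. Its rise was 8.15 on the log2 scale (SE 0.09, limma adjusted p = 1.4e-07). Igfbp5, a secreted binding protein, went from a mean of 0.1995 to 139 RPKM. These genes moved in the same direction as the fibroblast and endoderm markers, whose part in the result was not tested. Of 14 enzymes and readers of m6A, the mRNA mark that IGF2BP proteins also recognise, 12 were tested, 5 were called higher and 1 lower, beside 37.0% and 33.1% of all genes, with a median of 0.13. Rbm15b and Alkbh5, the latter a demethylase, went from 10.2 to 20.2 and from 6.75 to 10.3 RPKM, and Wtap, a subunit of the methyltransferase, from 6.47 to 3.24. The difference of Alkbh5 was 0.57 on the log2 scale. It was 0.55 to 0.60 with an NPC sample left out and 0.31 with median-of-ratios scaling, and none of these alternatives passed the test. It was 0.37 when ESC replicate 3 was left out, and there it passed (limma adjusted p = 0.000188). Without ESC replicate 3 the count was 5 higher and 4 lower, beside 44.0% and 43.9%, with a median of 0.00.

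MYC and MYCN are transcription factors of growth and proliferation that bind DNA with MAX. Myc (chr15:61985391-61990374, plus strand) had RPKM values of 1.31, 1.49 and 1.49 in the ESC samples and of 5.19, 6.15 and 5.66 in the NPC samples. All NPC samples were above all ESC samples. Myc rose by 1.45 on the log2 scale (SE 0.08, limma adjusted p = 9.9e-06), a ratio of mean RPKM of 3.96, and by 1.47 without ESC replicate 3.

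Mycn (chr12:12936093-12941914, minus strand), the family member known from neural progenitors, had RPKM values of 24.7, 26.4 and 21.8 in the ESC samples and of 23.5, 28.6 and 29.0 in the NPC samples. The groups overlapped, and Mycn was above Myc in every sample on both length scales. The difference of Mycn was 0.15 on the log2 scale (SE 0.13, limma adjusted p = 0.343), and its direction flipped to -0.14 with median-of-ratios scaling, which is 0.08 relative to the median of all genes (0.12 with the deposited values). It passed the test with TPM scaling, at 0.58 (limma adjusted p = 0.0403), which is -0.03 relative to the median of all genes. Mycn also passed with quantile normalization, at 0.48 (limma adjusted p = 0.0286), which is 0.55 relative to that median. Over all its alternatives the adjusted p lay between 0.0286 and 0.631.

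**Figure D3:**
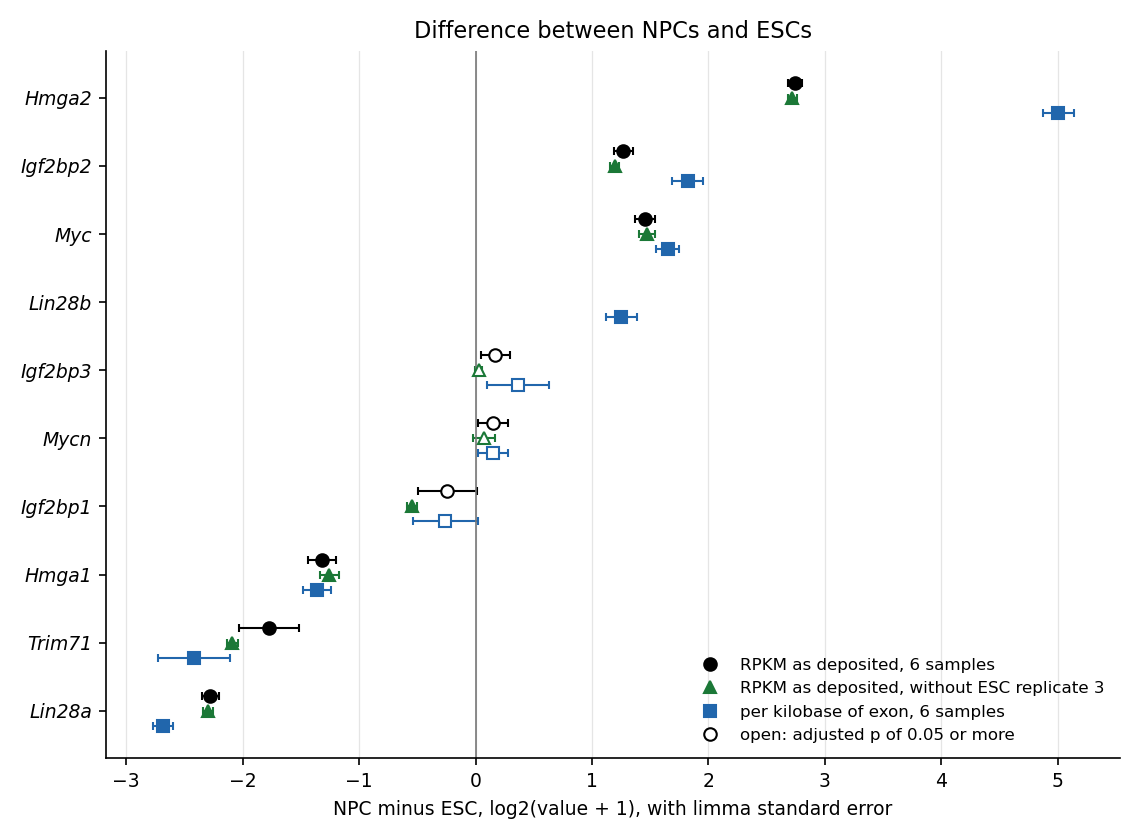
Difference between NPCs and ESCs of each gene on the log2(value + 1) scale (x axis) with limma standard errors, for the deposited RPKM of 6 samples (circles), without ESC replicate 3 (triangles) and per kilobase of exon (squares). Filled marks passed the test and open marks did not: Igf2bp1 passed without ESC replicate 3, at -0.55, and turned to 0.16 under TPM scaling (not drawn), as Mycn turned to -0.14 under median-of-ratios scaling (not drawn), and Lin28b has a value per kilobase of exon alone.

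The MAX network holds the partners and competitors of MYC. Of 11 genes, 9 were tested, 4 were called higher and 2 lower, beside 37.0% and 33.1% of all genes (5 and 3 without ESC replicate 3, beside 44.0% and 43.9%), with a median of 0.37 beside 0.03 for all genes tested. Mxd4, a repressor that pairs with MAX, went from a mean of 0.128 to 4.83 RPKM (2.37 on the log2 scale, SE 0.06, limma adjusted p = 2.6e-07), and Mlxip from 0.521 to 1.88; both were under 1 RPKM in every ESC sample. Max itself fell from 4.05 to 2.65 RPKM, a call lost with TPM (-0.18 against -0.47, adjusted p = 0.233), and Mlx from 8.00 to 4.09. Of 18 targets of MYC, most of them genes of ribosome biogenesis and of nucleotide or polyamine synthesis, all were tested, none rose and 15 fell, beside 37.0% and 33.1% of all genes, with a median of -1.09 beside 0.03. Srm, spermidine synthase, had 58.7, 65.9 and 88.8 RPKM in the ESC samples and 19.9, 22.0 and 22.4 in the NPC samples (fell by 1.67 on the log2 scale, limma adjusted p = 0.000175). Ddx21, a nucleolar helicase, fell from 23.8 to 7.06. Without ESC replicate 3, 16 were called lower and 2 higher, beside 43.9% and 44.0% of all genes, with a median of -1.08. The MYC targets as a list were thus lower in the cell type where Myc was higher and Mycn did not pass the test.

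Among themselves the 10 genes spanned a wide range in each cell type. On the RPKM scale, ESCs had Hmga1 (37.3), Mycn (24.3), Lin28a (11.4), Igf2bp1 (9.35), Trim71 (5.68), Myc (1.43), Igf2bp2 (1.12), Igf2bp3 (0.852), Hmga2 (0.154) and Lin28b (0.114) in descending order of the mean. Ranges of the replicates overlapped between the neighbours Lin28a and Igf2bp1, Igf2bp1 and Trim71, Igf2bp2 and Igf2bp3, and Hmga2 and Lin28b. The order was the same without ESC replicate 3, and only Lin28a and Igf2bp1 overlapped. In NPCs the order was Mycn (27.0), Hmga1 (14.3), Igf2bp1 (7.39), Hmga2 (6.72), Myc (5.66), Igf2bp2 (4.09), Lin28a (1.55), Igf2bp3 (1.06), Trim71 (0.871) and Lin28b (0.382), with no overlap between neighbours.

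Per kilobase of exon the order was another. Hmga1 (126) led in ESCs, followed by Igf2bp1 (47.1), Lin28a (44.2), Mycn (42.9) and Trim71 (34.9), whose neighbours overlapped, then Igf2bp2 (15.7) and Igf2bp3 (13.5), which overlapped, Myc (2.63) and Hmga2 (2.62), which also did, and Lin28b (1.38). With ESC replicate 3 left out, Mycn (45.1) stood above Lin28a (44.9), with overlap, and Hmga2 (2.93) above Myc (2.57), and no other neighbours overlapped. In NPCs Hmga2 (114) led, followed by Igf2bp2 (57.6), Hmga1 (48.4), Mycn (47.7), Igf2bp1 (37.2), Igf2bp3 (16.9), Myc (10.4), Lin28a (6.02), Trim71 (5.34) and Lin28b (4.63). Hmga1 and Mycn overlapped there, as did Lin28a, Trim71 and Lin28b in turn. On either scale Lin28b was the lowest and Lin28a and Trim71 dropped toward it in NPCs.

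The balance within each family was measured as the log2 ratio of paralogs per sample, on log2(RPKM + 1). For Lin28a over Lin28b this ratio was 3.43, 3.51 and 3.48 in the ESC samples and 0.88, 0.86 and 0.91 in the NPC samples, a difference of -2.59. For Hmga1 over Hmga2 it was 4.90, 5.03 and 5.22 in ESCs and 0.87, 0.97 and 1.12 in NPCs, a difference of -4.06. Both families moved away from the paralog that led in ESCs, and neither overlapped between cell types. For Igf2bp1 over Igf2bp2 the ratio was 2.45, 2.48 and 1.77 in ESCs and 0.72, 0.74 and 0.70 in NPCs, a difference of -1.51. For Myc over Mycn it was -3.48, -3.46 and -3.19 in ESCs and -1.99, -2.05 and -2.17 in NPCs, a difference of 1.31. The ratios with Igf2bp3 differed by -0.41 for Igf2bp1 and by 1.10 for Igf2bp2. Without ESC replicate 3 the differences, in the order given, were -2.59, -3.98, -1.74, 1.398, -0.57 and 1.17. With all samples and a pseudocount of 0.1 they were -3.98, -6.13, -2.06, 1.76, -0.61 and 1.45, so their size depended on the pseudocount.

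The 6 ratios separated the samples by cell type, and each had p = 0.1 in the two-sided exact permutation test and 0.1 after adjustment over the 6 pairs. With 3 samples against 3 no smaller p than 0.1 is possible, so the test could not pass 0.05. Per kilobase of exon the sign of a ratio in NPCs could turn. Hmga1 over Hmga2 went from a mean of 5.14 in ESCs to -1.23 in NPCs and Igf2bp1 over Igf2bp2 from 1.46 to -0.62, whereas these were 0.99 and 0.72 in NPCs on the deposited RPKM. The differences between cell types kept their direction on both scales.

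The let-7 family is the shared regulator of several of these mRNAs, and its mature sequences are shown because all carry 1 seed. In RefSeq GRCm38.p6, 9 mature let-7 and miR-98 sequences of the 5p arm had bases 2 to 8 as GAGGUAG, in capitals in these examples.
let-7a: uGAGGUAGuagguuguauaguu
let-7d: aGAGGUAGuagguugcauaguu
let-7e: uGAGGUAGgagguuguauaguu
miR-98: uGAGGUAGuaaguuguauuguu
The match CTACCTC was searched on the sense strand of the longest annotated 3′ UTR of each protein-coding gene (GENCODE M21, GRCm38). It was present in 1876 of 20893 UTRs (8.98%) and in 8 of the 10 members, the exceptions being Myc and Mycn. Most members are known let-7 targets, so a high share was set by the choice of the list. This share and the numbers of matches below are a description and no result about the members.

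Lin28b, Trim71, Hmga2 and Igf2bp1 had 4 matches each, a number reached or passed by 12 genes in all. Their UTRs of 4445, 5512, 3014 and 6337 bases were longer than the median UTR of 957 bases, and a longer UTR has more room for a match. Lin28a had 2 matches, and Hmga1, Igf2bp2 and Igf2bp3 had 1 each. At least 3 matches were found in 32 UTRs (0.153%). With a further A opposite base 1 of the microRNA (CTACCTCA), 633 UTRs (3.03%) and 7 members held a match, among them all 4 matches of Trim71 but 1 each of Lin28b and Hmga2. The sites of the LIN28 genes and Hmga2 are shown with 15 bases before the match (capitals) and 1 after it, on the minus strand of GRCm38.
Lin28a site 1, chr4:134005189-134005211: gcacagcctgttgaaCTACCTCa
Lin28a site 2, chr4:134004551-134004573: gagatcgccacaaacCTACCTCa
Lin28b site 1, chr10:45381022-45381044: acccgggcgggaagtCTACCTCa
Lin28b site 2, chr10:45378648-45378670: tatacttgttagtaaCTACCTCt
Lin28b site 3, chr10:45378476-45378498: gtttacagcacatggCTACCTCc
Lin28b site 4, chr10:45377060-45377082: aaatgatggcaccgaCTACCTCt
Hmga2 site 1, chr10:120364224-120364246: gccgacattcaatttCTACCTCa
Hmga2 site 2, chr10:120362987-120363009: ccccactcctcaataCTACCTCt
Hmga2 site 3, chr10:120362549-120362571: ctgatttgcaaggaaCTACCTCc
Hmga2 site 4, chr10:120361691-120361713: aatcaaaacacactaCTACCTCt
A match describes the letters of the UTR and does not show that let-7 acts there. The genes with 4 matches included some that were higher in NPCs (Hmga2, Lin28b) and 1 that fell (Trim71), while Igf2bp1, also with 4, did not pass the test.

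Mature let-7 levels were not analysed here, since the RNAseq was of polyadenylated RNA. Of 15 let-7 genes and host genes, 2 were found in the tables. Wdr82, the host of let-7g, fell from a mean of 12.5 to 9.35 RPKM (-0.38 on the log2 scale, SE 0.10, limma adjusted p = 0.0133), a direction that flipped to 0.01 with TPM scaling, where the median of all genes moved to 0.60. Without NPC replicate 2 or 3 the difference of Wdr82 was -0.36 and -0.35, with adjusted p of 0.0608 and 0.0632. Huwe1, the host of let-7f-2 and miR-98, had means of 6.65 and 8.30 RPKM and was not called, but without ESC replicate 3 its difference turned to -0.10 and was called lower; the list's median was 0.05 with all samples and -0.27 without that sample.

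Among 19 genes of let-7 processing and silencing found in the tables, 15 were tested, 8 were called higher and 1 lower, beside 37.0% and 33.1% of all genes, with a median of 0.40 beside 0.03. Zcchc11 (Tut4), the uridylyltransferase that acts with LIN28A on let-7 precursors, had 0.759, 0.666 and 0.248 RPKM in the ESC samples and 3.44, 3.37 and 3.37 in the NPC samples. It rose by 1.51 on the log2 scale (SE 0.13, limma adjusted p = 7.6e-05). Prkra, a partner of Dicer, went from 0.692 to 3.07 RPKM. Tarbp2, the other partner of Dicer, had 14.1 and 10.3, a difference of -0.41 (limma adjusted p = 0.0451). This call was lost in several alternatives, among them TPM (-0.01, adjusted p = 0.893) and each NPC sample left out (-0.44 to -0.38). The difference of Tarbp2 was -0.26 without ESC replicate 3, where it passed the test (limma adjusted p = 0.00475). Of 15 other let-7 targets tested, 7 were called higher and 4 lower, beside the same 37.0% and 33.1%, with a median of -0.12. Per kilobase of exon 18 were tested, 9 were higher and 4 lower, beside 43.1% and 29.6% of all genes. The median was then 0.52, beside 0.21 for all genes. Ccnd2, a D-type cyclin, went from 0.117 to 20.2 RPKM (4.25 on the log2 scale, SE 0.08, limma adjusted p = 1.9e-07) and Irs2, an insulin receptor substrate, from 0.504 to 5.38. Ccnd1 fell from 16.8 to 8.08 RPKM, a call lost with TPM (-0.58 against -0.93, adjusted p = 0.175), and Hras from 13.0 to 6.79, with a log2 difference of -0.80 that was -0.79 without NPC replicate 1 or 2, where the adjusted p was 0.056 and 0.0516. Without ESC replicate 3 the counts were 8 higher and 4 lower for let-7 processing and 7 higher and 7 lower for the targets, beside 44.0% and 43.9% of all genes.

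The positions of the genes were set against nucleolar associated domains (NADs), of which 1 list per cell type with 1 score per NAD holds no replicates, so that no test was made. NADs numbered 1769 in ESCs and 1447 in NPCs, and 27.2% and 21.7% of 21259 genes of the tables overlapped 1 by at least 1 base. Lin28b overlapped a NAD in both cell types, at chr10:45300560-48099048 in ESCs (score 0.0274) and chr10:45399881-45700081 in NPCs (score 0.0720), and its transcription start lay within both. Scores were higher in NPCs in general, with medians over all NADs of 0.0256 in ESCs and 0.0413 in NPCs. Among NADs of its chromosome, that of Lin28b was at percentile 58.0 in ESCs and 97.2 in NPCs. Igf2bp3 overlapped 1 in NPCs (chr6:49200290-49299859, score 0.0373, percentile 35.8 of its chromosome) with its start and 14668 bases of its body. The nearest NAD in ESCs was 185 kb away. The paper mapped contacts at a resolution about as coarse as this NPC NAD is long. The overlap of Igf2bp3 lay below that resolution, and edges of NADs are not exact to the base. The members thus overlapped NADs in 1 of 10 cases in ESCs and in 2 of 10 in NPCs, counting the unresolved overlap of Igf2bp3. The nearest NAD was closer to Igf2bp2 in NPCs (37.0 kb, below the resolution of the mapping) than in ESCs (1760 kb). It was farther in NPCs from Trim71 (3310 against 606 kb), Igf2bp1 (1190 against 157 kb), Lin28a (2280 against 1300 kb) and Hmga2 (1520 against 1320 kb). The NAD nearest to Igf2bp1 in ESCs had a low score (0.00241, percentile 1.33 of its chromosome). NPCs had fewer NADs, and distances of all genes were not computed, so no shift particular to the members can be read from these values. Myc was 285 kb away in both, and the genes with the highest RPKM, Hmga1 and Mycn, were 757 and 258 kb away in ESCs and 757 and 259 kb in NPCs.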

How the data were processed

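The 6 RNAseq samples (3 ESC, 3 NPC) and the NAD list of each cell type were used; other samples and assays were not. The authors removed rRNA reads, trimmed and aligned reads to mm10 (GRCm38) and deposited RPKM values per gene. The paper describes counting over exons, whereas the deposited RPKM values match division by the gene span. Paper and labels name different aligners and kits, and the labels' notes list Bowtie2 2.3.4.3, Subread 1.4.6-p4 and deepTools 3.2.1. The authors called NADs common to both Nucleolar-DamID replicates and deposited 1 score per NAD.

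Genes with RPKM of at least 1 in at least 3 of 6 samples were compared on log2(RPKM + 1) by a linear model (limma 3.58.1, R 4.3.3; eBayes with trend), with Benjamini-Hochberg adjustment over all genes tested and calls at adjusted p under 0.05. The tables have 22064 lines; 153 symbols on more than 1 line were left out. Gene spans and exon lengths came from GENCODE M21, which named 98.6% of the symbols; the others have no value per kilobase of exon. Paralog ratios were tested with a two-sided exact permutation test. The limma script was run on made-up data with set changes: of 50 genes each it recovered 39 and 47 at log2 changes of -1.5 and 1.5, and 16 and 12 at -0.5 and 0.5; the pass mark was lowered after the first run missed it. Other steps used Python 3.11.15 with pandas 2.3.3, numpy 2.4.6 and matplotlib 3.10.9.

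Members and lists were chosen with earlier results of these data known. Named genes were the members and, in each pathway list, up to 2 called genes with the highest rise and up to 2 with the deepest fall (every gene in lists of 3 or fewer), the 3 closest genes of Lin28a, Lin28b and Hmga2, and the most abundant markers; Pax6, Nes, Sox1, Hes5, Krt7, Neurod1, Stmn2, Huwe1, Igfbp2, Hmgb4 and genes that overlap members were named after their values were seen. Alternatives were another pseudocount (0.1), filters, scalings, no trend, duplicated symbols kept, the replicate number as a block, samples left out in turn and, chosen after seeing the data, kilobases of exon.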

Additional observations from a re-analysis of the deposited data

How the results depend on the processing

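Of 162 alternatives to results on members, 156 kept the result, 4 were stronger and 2 reversed. Alternatives that left a member untested are not among them. The filter on all 6 samples did so for Lin28b, Trim71, Hmga2, Igf2bp2 and Igf2bp3. Median-of-ratios scaling and quantile normalization did so for Igf2bp3. Lin28b was counted against its fit with no filter. A kept result could differ in size, as Hmga2 did, from 2.59 to 5.07. The 60 for paralog ratios kept their direction, and their exact p could not change a call. Of 413 for list genes 386 kept the result, 26 were weaker and 1 reversed. Genes called higher numbered 7200 with no filter, 1133 with the filter on all 6 samples, 6396 with TPM, 5086 per kilobase of exon and 5834 when ESC replicate 3 was also left out, and genes called lower 4166 with no filter and 4640 per kilobase of exon without ESC replicate 3. Members called higher were 1 of 5 tested with the filter on all 6 samples, beside 22.4% of all genes. With TPM they were 5 of 10 tested, beside 51.1%. Igf2bp1 was 0.16 with TPM (reversed), -0.55 to -0.0871 with samples left out in turn (-0.55 without ESC replicate 3) and -0.60 also per kilobase of exon (limma adjusted p between 1.4e-06 and 0.786 over all alternatives). Mycn was 0.58 with TPM, 0.48 with quantile normalization and -0.14 with median-of-ratios scaling (reversed, but 0.08 relative to the median of all genes), and Wdr82 was 0.0107 with TPM (reversed, while that median was 0.60). With replicate number as a replicate block, 2735 genes were called higher and 2426 lower, with the same 6 members called; the replicates share only a number. Called genes in let-7 processing were 4 with the filter on all 6 samples and 5 to 12 with samples left out in turn, in other let-7 targets 5, in the MAX network 3, in TRIM-NHL genes 1 and in the IGF axis 1 with that filter, the last 10 with no filter, TPM or kilobases of exon, ESC replicate 3 in or out. The let-7 hosts had 0 with TPM or quantile normalization, 0 to 2 with samples left out and 2 per kilobase of exon without ESC replicate 3, the other HMG genes 4 with median-of-ratios scaling or quantile normalization, and the m6A genes 2 to 9 with samples left out and 10 per kilobase of exon without ESC replicate 3. Of all genes tested, 70.2% were called with the main settings, 60.2% with the filter on all 6 samples and 62.4% with no filter. The share was 69.3% with TPM, 71.6% with median-of-ratios scaling and 72.5% with quantile normalization. It was 58.9% to 87.8% with samples left out in turn, and 72.7% per kilobase of exon (88.7% without ESC replicate 3). The cause of these moves was not tested.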
